A study of Mus musculus with 6 samples.

Results

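The genes described here encode the contents of cytotoxic granules and the proteins that hold or restrain them: the granzyme genes Gzma, Gzmb, Gzmc, Gzmd and Gzmk, the perforin gene Prf1, the granule membrane gene Nkg7, the serglycin gene Srgn and the protease inhibitor genes Serpinb9 and Serpinb6b. They were chosen by symbol from a table of FPKM values (reads scaled to the length of the gene and to the reads assigned to genes in the library), and all 10 were found among its 33300 features. The libraries were made from polyadenylated RNA of CD4 T cells, which were isolated as naive cells from age-matched female mice and cultured for 5 days on plates coated with antibodies to CD3 and CD28. All 6 cultures received the same Th17 mixture of 1 ng/mL TGF-β1, 50 ng/mL IL-6, 10 ng/mL IL-1β, 10 ng/mL IL-23 and blocking antibodies against IL-4 and against interferon-γ at 10 µg/mL each. 3 libraries came from control mice, whose genotype is given as WT, and 3 from mice of the genotype SLE1.2.3, the usual name of a congenic line that carries lupus susceptibility intervals and develops lupus-like disease. Mice are numbered 1 to 3 within each group, and the sources used here give neither their ages nor the strain of the controls.

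Cytotoxic lymphocytes store granzymes, a family of serine proteases, together with perforin in secretory lysosomes, bound to the proteoglycan serglycin. On contact with a target cell the granules fuse with the plasma membrane, perforin opens a path into the target and the granzymes cleave proteins there, while serpins in the cytosol of the killer cell bind granzyme that leaks from the granules. Killing by granules is best known from CD8 T cells, NK cells and some γδ T cells, and CD4 T cells can also express granule genes.

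Depth and the levels of cell type markers differed between the libraries. Between 29735390 and 83457532 reads per library were assigned to genes, with the lowest number in control mouse 3. The summed level of 6 T cell genes (Cd4, Trac, Cd40lg and the Cd3e, Cd3d and Cd3g genes of all T cells) was 1048 to 1159 FPKM in the controls and 716 to 1153 FPKM in the SLE1.2.3 libraries, and 0 of the 6 passed the test described below (6 tested; at an unadjusted p under 0.05 limma counted 1 higher and 0 lower, and voom called 0). Cd4 itself had 246, 264 and 253 FPKM in control mice 1, 2 and 3, and SLE1.2.3 mice 1, 2 and 3 had 257, 144 and 71.6 FPKM. Without SLE1.2.3 mouse 1, Cd4, Trac and Cd40lg were called lower and the Cd3 genes were not, where 13.9% of all genes were called lower. In the controls the CD8 gene Cd8a ranged from 0.218 to 0.508 FPKM, and SLE1.2.3 mice 1, 2 and 3 had 1.34, 21.4 and 56.4 FPKM of it. The γδ receptor gene Trdc was at 4.96, 18.9 and 45.2 FPKM in these SLE1.2.3 libraries and at 0.592 to 0.661 FPKM in the controls. SLE1.2.3 mice 2 and 3 thus stood apart from mouse 1, and the calls of the granule genes are also given without both of them. In bulk RNA, more cells of a type and more RNA per cell cannot be told apart.

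The comparison of SLE1.2.3 with control cells asks how granule genes differ between Th17 cultures of lupus-prone and healthy mice. RNA of the stored effectors was higher in SLE1.2.3 cells: Gzma, Gzmb, Gzmc, Gzmd, Prf1 and Nkg7 rose. The serglycin gene Srgn and the granzyme B inhibitor gene Serpinb9 did not pass the test, and Serpinb6b, which encodes an inhibitor of granzyme A, fell. Values were tested as log2(FPKM + 1) with limma across the 11378 genes that averaged 1 FPKM or more over the 6 libraries, and called at a Benjamini-Hochberg adjusted p under 0.05. Of the 9 granule genes tested, 6 were called higher and 1 lower, where 9.65% of all tested genes were called higher and 5.58% lower. Gzmd and Prf1 had control means under 1 FPKM and so passed the minimum for testing only through their SLE1.2.3 values. Of the other 7 tested genes, 4 were higher, 1 was lower and 2 did not pass. Gzmk was below the minimum and not tested. The median log2 change was 3.90 over the 9 tested genes and 0.01 over all tested genes.

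**Figure D1:**
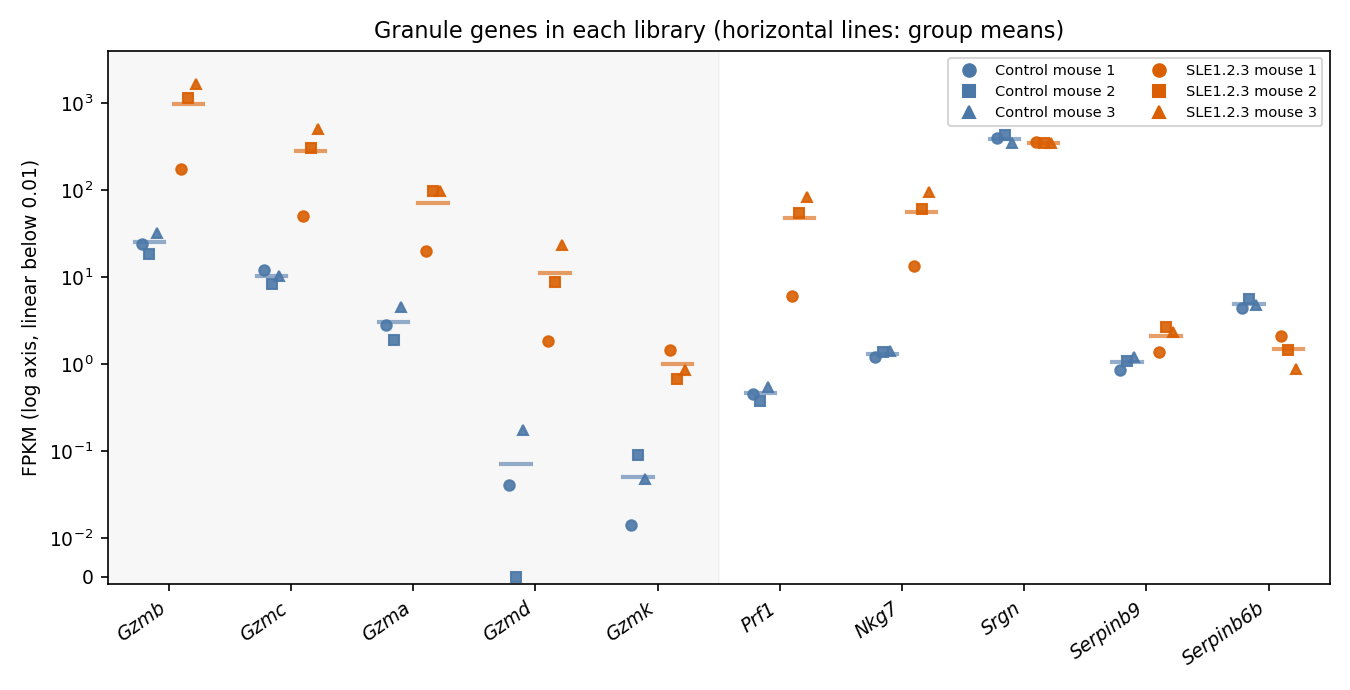
FPKM of the 10 granule genes (log axis, linear below 0.01) in each library, with blue symbols for control and orange symbols for SLE1.2.3 mice and lines for the group means. For Gzmb the SLE1.2.3 values of 177, 1138 and 1648 FPKM lie above the highest control at 32.5 FPKM, while the Srgn groups overlap and Serpinb6b is lower in SLE1.2.3 cells.

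Gzmb encodes granzyme B, which cleaves after aspartate and activates caspases in the target cell. Its level was 23.9, 18.5 and 32.5 FPKM in control mice 1, 2 and 3, and 177, 1138 and 1648 FPKM in SLE1.2.3 mice 1, 2 and 3. The groups did not overlap, and even the lowest SLE1.2.3 library, mouse 1, was at 5.44 times the highest control. SLE1.2.3 mice 2 and 3 were at 6.44 and 9.32 times mouse 1. By level per gene length, Gzmb stood at places 1571 to 2897 among all features in the controls, at place 232 in SLE1.2.3 mouse 1, and at places 23 and 9 in SLE1.2.3 mice 2 and 3. The log2 change was 4.77 ± 0.81 (SE; n = 3 per group; 95% interval 2.81 to 6.73; limma adjusted p = 0.018).

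Gzmc and Gzmd encode 2 rodent granzymes whose genes lie in a cluster with Gzmb. Gzmc was at 12.1, 8.43 and 10.2 FPKM in control mice 1, 2 and 3 and at 50.6, 302 and 497 FPKM in SLE1.2.3 mice 1, 2 and 3. As for Gzmb, the groups were separate and SLE1.2.3 mouse 1 was the lowest of its group, at 4.18 times the highest control. The log2 change of Gzmc was 4.15 ± 0.80 (SE; limma adjusted p = 0.024). Gzmd was close to absent from the controls, with 2, 0 and 5 reads or 0.041, 0 and 0.174 FPKM in mice 1, 2 and 3, where 0 reads allow up to 0.0548 FPKM at 3 reads. It reached 1.83, 8.86 and 23.1 FPKM in SLE1.2.3 mice 1, 2 and 3, on 147, 527 and 1674 reads. The log2 change of Gzmd was 3.03 ± 0.72 (SE; limma adjusted p = 0.039), on a scale that understates changes from near 0.

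These genes belong to a run of 7 granzyme genes on the reverse strand of chromosome 14, from Gzme to Gzmb over 145 kb (mm10, 56117626 to 56262260). Gzmb (56258838 to 56262260) and Gzmc (56231441 to 56234656) lie at one end, and Gzmd (56129556 to 56132608) and Gzme (56117626 to 56120625) at the other. Gzme was at 0, 0 and 0.147 FPKM in control mice 1, 2 and 3 and 1.07, 7.33 and 18.8 FPKM in SLE1.2.3 mice 1, 2 and 3, and did not pass (limma adjusted p = 0.058). Between them and Gzmc, Gzmf reached at most 2.38 FPKM and Gzmg at most 0.82 FPKM, both in SLE1.2.3 libraries and both below the minimum for testing, and Gzmn was listed at 0 in all 6 libraries. Across the cluster the SLE1.2.3 libraries thus held every granzyme gene but Gzmn above the controls. Gzmm, which encodes a granzyme and lies on chromosome 10, was at 0.243 to 0.371 FPKM in the controls and 0.407 to 0.474 FPKM in the SLE1.2.3 libraries.

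**Figure D2:**
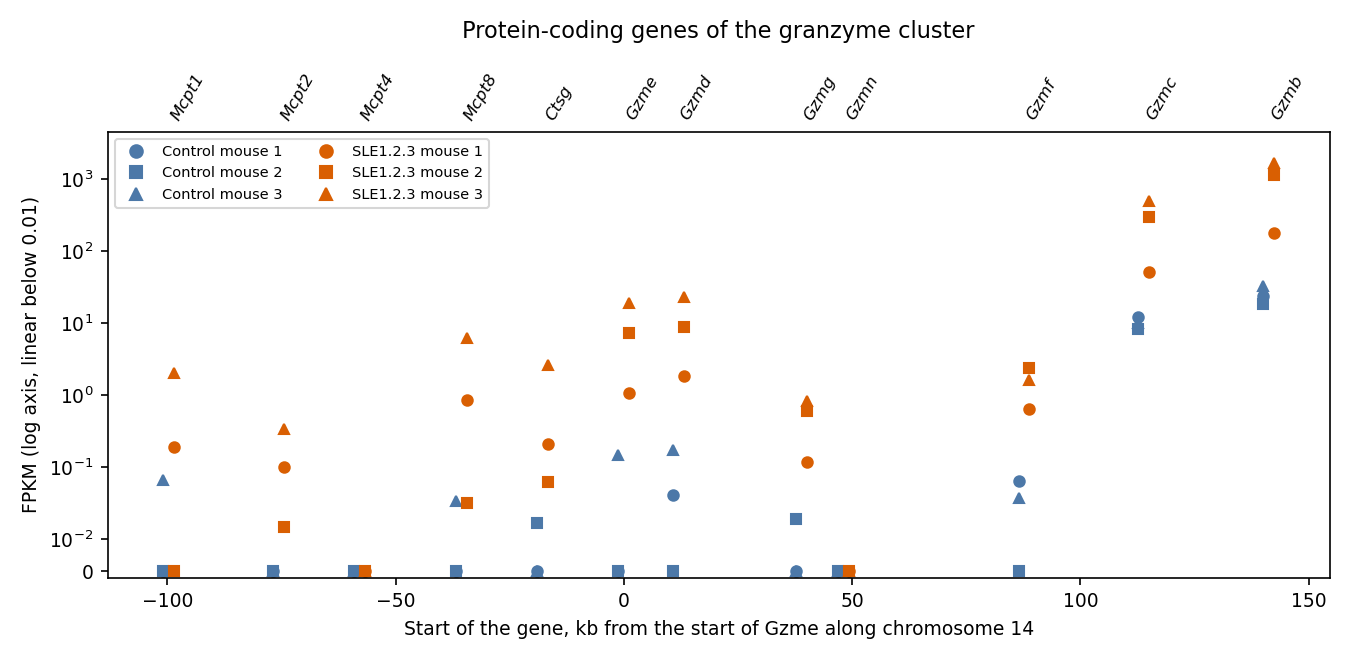
FPKM of the protein-coding genes of the granzyme cluster on chromosome 14 (log axis, linear below 0.01) against the start of each gene in kb from the start of Gzme, in control (blue) and SLE1.2.3 (orange) libraries. Of the genes shown, Gzmb and Gzmc are the highest in every library, Gzmn and Mcpt4 are at 0 throughout, and Mcpt1, Mcpt2, Mcpt8 and Ctsg are highest in SLE1.2.3 mouse 3.

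The neighbours of the cluster on the Gzme side are protease genes of mast cells, basophils and neutrophils. Mcpt8, a basophil protease gene, stayed at or below 0.034 FPKM in the controls, and SLE1.2.3 mice 1, 2 and 3 had 0.852, 0.032 and 6.19 FPKM. The neutrophil cathepsin gene Ctsg had 0.209, 0.063 and 2.67 FPKM in the same libraries. Both were lower in SLE1.2.3 mouse 2 than in mouse 1, whereas Gzmb was at 1138 FPKM in mouse 2 and 177 FPKM in mouse 1.

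Near-identical relatives can share reads, so the transcripts were compared for stretches of 50 identical bases. Gzmb and Gzma shared 0 such stretches with the other granzyme transcripts. Of the 845 stretches of Gzmc, 32 occurred in Gzme, 21 in Gzmg and 3 in Gzmd. Gzmd shared 110 of its 915 stretches with Gzme and 65 with Gzmg. The split between Gzmd and Gzme is therefore less certain than the levels of Gzmb, Gzma and Gzmc.

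The sequences just upstream of Gzmb, Gzmc and Gzmd are shown because these 3 genes of the cluster rose in SLE1.2.3 cells. Each line below holds the 250 bases before the RefSeq start on the gene's strand (RefSeq, GRCm38.p6, the assembly that mm10 names). Capitals mark matches, on either strand, to 4 motifs: the Runx word TGTGGT, the AP-1 word TGANTCA, the T-box word GGTGTGA and the STAT word TTCNNNGAA.
Gzmb, chr14:56262335-56262584, reverse strand: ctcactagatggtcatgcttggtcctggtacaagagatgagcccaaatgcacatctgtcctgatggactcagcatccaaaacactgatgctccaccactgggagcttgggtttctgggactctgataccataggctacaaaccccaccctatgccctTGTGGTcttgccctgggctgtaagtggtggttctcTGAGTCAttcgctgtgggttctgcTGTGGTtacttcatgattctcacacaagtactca
Gzmc, chr14:56234658-56234907, reverse strand: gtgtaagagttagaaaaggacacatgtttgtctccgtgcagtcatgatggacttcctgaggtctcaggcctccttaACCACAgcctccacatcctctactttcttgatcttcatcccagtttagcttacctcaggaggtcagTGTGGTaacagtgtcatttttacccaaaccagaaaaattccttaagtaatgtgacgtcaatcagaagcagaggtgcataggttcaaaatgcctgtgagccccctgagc
Gzmd, chr14:56132594-56132843, reverse strand: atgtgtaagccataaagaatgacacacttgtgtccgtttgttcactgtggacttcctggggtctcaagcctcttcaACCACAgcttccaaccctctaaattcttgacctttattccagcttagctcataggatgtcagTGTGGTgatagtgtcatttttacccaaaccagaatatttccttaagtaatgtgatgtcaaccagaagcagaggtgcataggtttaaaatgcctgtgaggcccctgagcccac
Gzmc and Gzmd each held the Runx word once on either strand, beginning 174 and 108 bases before the start in Gzmc and 174 and 112 bases before it in Gzmd. Gzme, Gzmf and Gzmg held the same pair, 62 bases apart as in Gzmd. Gzmd and Gzme were identical at 95.6% of 249 aligned bases in this window, and Gzmc and Gzmd at 84.4% of 244, so these matches are not independent of each other. Gzmb held the Runx word 93 and 34 bases before its start and the AP-1 word 58 bases before it, and no marked word overlaps another. The RefSeq start of Gzmb lies upstream of the gene's end in the deposited table.

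Gzma encodes granzyme A, a protease that cleaves after basic residues, and lies on chromosome 13 (113093825 to 113100981). It was at 2.80, 1.87 and 4.55 FPKM in control mice 1, 2 and 3 and at 20.05, 96.5 and 98.2 FPKM in SLE1.2.3 mice 1, 2 and 3. The groups did not overlap, and SLE1.2.3 mice 2 and 3 were close to each other, at 4.82 and 4.90 times mouse 1. The log2 change was 3.90 ± 0.63 (SE; limma adjusted p = 0.016). Gzmk, which encodes another protease of this type, lies 70.6 kb from Gzma on chromosome 13 (113171608 to 113225908).

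Gzmk differed from the other granzymes in its order over the SLE1.2.3 libraries. It was at 0.014, 0.089 and 0.048 FPKM in control mice 1, 2 and 3, on 1, 7 and 2 reads. In SLE1.2.3 mice 1, 2 and 3 it was at 1.46, 0.677 and 0.853 FPKM, on 169, 58 and 89 reads. The groups did not overlap, and mouse 1 was the highest of the SLE1.2.3 libraries, with 95% counting limits of 1.25 and 1.70 FPKM (exact Poisson) against 0.685 and 1.05 FPKM in mouse 3. In mice 2 and 3 it was at 0.464 and 0.585 times mouse 1, where Gzma, Gzmb, Gzmc and Gzmd were at 4.82 to 12.7 times. That difference in order rests on 3 libraries and was not tested. A peak in mouse 1 was not particular to Gzmk at this place. Esm1 (113209659 to 113218098) lies within the deposited span of Gzmk on the opposite strand, with 0 shared exon bases. It had 1.53, 0.997 and 0.673 FPKM in SLE1.2.3 mice 1, 2 and 3, and no control exceeded 0.067 FPKM. Mice 2 and 3 stood in the reverse order to that of Gzmk. Whether the levels of Gzmk and Esm1 are linked was not tested. With no filter on low values Gzmk passed, at a log2 change of 0.91 (limma adjusted p = 0.049).

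Gzmb made up most of the granzyme RNA in every library. The summed level of the 10 granzyme genes in the table was 39.2, 29.3 and 48.0 FPKM in control mice 1, 2 and 3 and 253, 1556 and 2289 FPKM in SLE1.2.3 mice 1, 2 and 3. Gzmb held 61.1% to 67.7% of this sum in the controls and 69.9% to 73.1% in the SLE1.2.3 libraries. Gzmc held 21.2% to 30.9% in the controls and 19.4% to 21.7% in the SLE1.2.3 libraries, which overlapped. The share of Gzma was 6.40% to 9.47% in the controls and 4.29% to 7.93% in the SLE1.2.3 libraries. The share of Gzma also overlapped between the groups, whereas that of Gzmb did not. Shares of a sum are bounded, so their spread cannot be set against that of the total.

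Prf1 encodes perforin, the pore-forming protein through which granzymes reach the target. It lies on chromosome 10 (61297833 to 61304680). Its level was 0.454, 0.375 and 0.547 FPKM in control mice 1, 2 and 3, on 59, 55 and 42 reads. In SLE1.2.3 mice 1, 2 and 3 it was 5.996, 54.5 and 83.6 FPKM, so that mouse 1 stood at 11.0 times the highest control and mice 2 and 3 at 9.09 and 13.9 times mouse 1. The log2 change was 4.46 ± 0.88 (SE; 95% interval 2.321 to 6.595; limma adjusted p = 0.026). Gzmb exceeded Prf1 per gene length by 49.3 to 59.4 times in the controls and by 19.7 to 29.5 times in the SLE1.2.3 libraries, without overlap. The window before its start is given for comparison with that of Gzmb, with the motifs in capitals as above.
Prf1, chr10:61297586-61297835, forward strand: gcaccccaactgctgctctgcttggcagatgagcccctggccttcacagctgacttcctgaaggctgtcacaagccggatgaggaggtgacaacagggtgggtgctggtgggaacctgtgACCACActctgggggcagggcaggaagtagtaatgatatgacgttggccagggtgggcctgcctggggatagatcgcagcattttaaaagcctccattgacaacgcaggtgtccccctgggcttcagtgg
It held 1 of the 4 motifs, the Runx word on the opposite strand, beginning 130 bases before the start.

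Over all 10 granule genes, 11 promoters were found in the RefSeq table. The Runx word stood before 7 of the genes (Gzma, Gzmb, Gzmc, Gzmd, Prf1, Nkg7 and, at 1 of its 2 starts, Srgn), against 14.05% of 32851 promoters of the same length. The T-box word stood before Gzmk and Nkg7 (3.33% of all promoters), the AP-1 word before Gzmb alone (6.75%) and the STAT word before Nkg7 alone (7.02%). The window used for Gzmk (113180966 to 113181215, reverse strand) lies inside the gene as deposited, which runs from 113171608 to 113225908. The Srgn window with the Runx word (62507758 to 62508007) and the window of Serpinb9 (33004291 to 33004540) also lie wholly inside their genes as deposited. Srgn was counted over 2 windows, whereas the share of all promoters is per window. The windows of Serpinb9 and Serpinb6b held 0 of the 4.

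Nkg7 encodes a membrane protein of cytotoxic granules that is needed for their efficient release. It lies on chromosome 7 (43437073 to 43438249). It was at 1.195, 1.37 and 1.40 FPKM in control mice 1, 2 and 3 and at 13.2, 60.7 and 95.1 FPKM in SLE1.2.3 mice 1, 2 and 3. The groups were far apart, with SLE1.2.3 mouse 1 at 9.47 times the highest control. The log2 change was 4.24 ± 0.66 (SE; limma adjusted p = 0.015). Prf1 was at 0.274 to 0.391 times Nkg7 in the controls, at 0.453 times in SLE1.2.3 mouse 1 and at 0.898 and 0.878 times in mice 2 and 3.

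**Figure D3:**
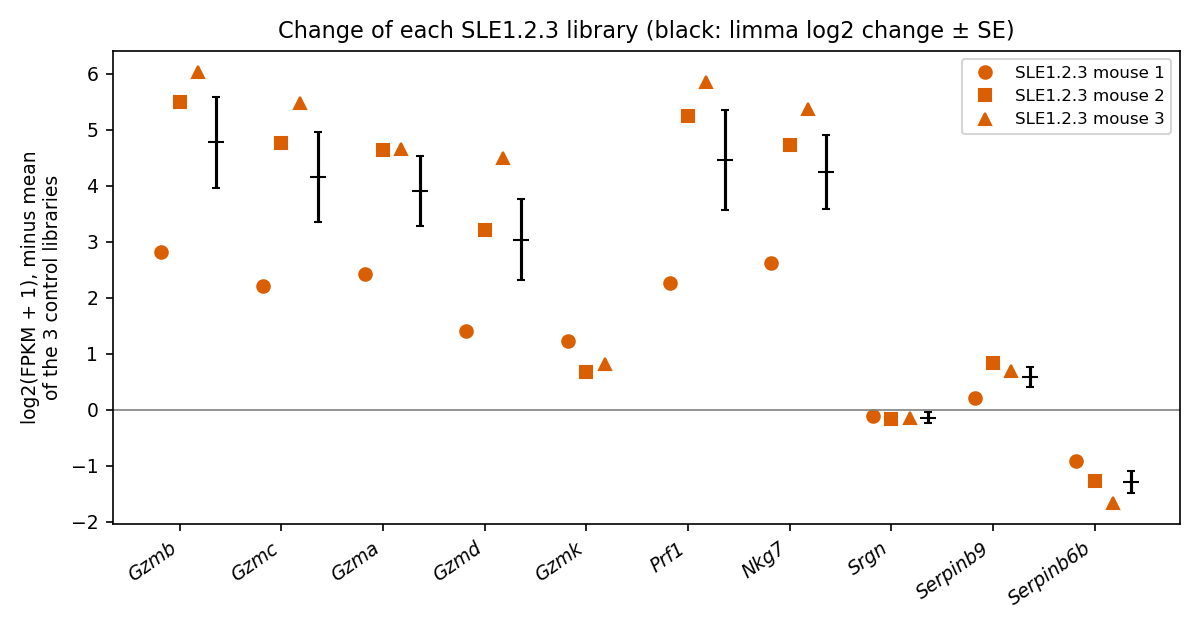
Change of each SLE1.2.3 library from the mean of the 3 controls in log2(FPKM + 1), with the limma log2 change ± SE in black for the 9 tested genes. Mouse 1 is the lowest of its group for Gzmb, Gzmc, Gzma, Gzmd, Prf1, Nkg7 and Serpinb9 and the highest for Gzmk, and all 3 libraries lie near 0 for Srgn.

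Srgn encodes the core protein of serglycin, the proteoglycan that packs granzymes and perforin in the granule. It was high in all libraries, at 395, 425 and 347 FPKM in control mice 1, 2 and 3 and at 359, 344 and 351 FPKM in SLE1.2.3 mice 1, 2 and 3. The groups overlapped, and the 3 SLE1.2.3 libraries lay closer together than the controls. The log2 change was -0.14 ± 0.10 (SE; 95% interval -0.38 to 0.09; limma adjusted p = 0.34). Gzmb per Srgn was 0.0435 to 0.0937 in the controls, 0.492 in SLE1.2.3 mouse 1, and 3.31 and 4.70 in SLE1.2.3 mice 2 and 3. Without Srgn, the granule genes took 0.00547% to 0.00784% of assigned reads in the controls and 0.0360%, 0.222% and 0.325% in SLE1.2.3 mice 1, 2 and 3.

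The 2 serpin genes lie 24.2 kb apart on chromosome 13, and the mean of Serpinb9 was higher and that of Serpinb6b lower in SLE1.2.3 cells. Serpinb9 (33003250 to 33017957) encodes the cytosolic inhibitor of granzyme B. It was at 0.859, 1.09 and 1.21 FPKM in control mice 1, 2 and 3 and at 1.36, 2.65 and 2.31 FPKM in SLE1.2.3 mice 1, 2 and 3. The groups did not overlap, but mouse 1 was only 1.12 times the highest control, and the log2 change of 0.57 ± 0.18 (SE; 95% interval 0.14 to 1.01) did not pass (limma adjusted p = 0.075). It passed without SLE1.2.3 mouse 1 (limma adjusted p = 0.0049). Gzmb per Serpinb9 was 16.9 to 27.9 in the controls and 130, 429 and 715 in SLE1.2.3 mice 1, 2 and 3.

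Serpinb6b (32965209 to 32979067) was the granule gene that fell. It was at 4.41, 5.56 and 4.82 FPKM in control mice 1, 2 and 3 and at 2.12, 1.44 and 0.865 FPKM in SLE1.2.3 mice 1, 2 and 3. All 3 SLE1.2.3 values lay below all 3 control values, and the group mean went from 4.93 ± 0.582 to 1.48 ± 0.630 FPKM (SD, n = 3 each). The log2 change was -1.29 ± 0.19 (SE; 95% interval -1.75 to -0.82; limma adjusted p = 0.014). Gzma, whose product Serpinb6b inhibits, was at 0.337 to 0.944 times Serpinb6b in the controls and at 9.44, 67.0 and 114 times in SLE1.2.3 mice 1, 2 and 3. Of the 50-base stretches of Serpinb6b, 44 (1.91%) also occurred in Serpinb6c, 15 in the pseudogene Gm8436, whose level was not analysed here, and 8 in Serpinb6a. Serpinb6c was at most 0.013 FPKM, and Serpinb6a at 15.9 to 18.1 FPKM in the controls and 16.6 to 18.2 FPKM in the SLE1.2.3 libraries (log2 change 0.01; limma adjusted p = 0.93).

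In all, the 2 groups did not overlap for 8 of the 10 granule genes in the higher direction and for 1 in the lower, where 23.9% and 17.7% of the tested genes were separated in this way. With 3 mice per group, a p-value here reflects how these animals varied. The calls depend on the number of libraries. After SLE1.2.3 mice 2 and 3 had both been removed, 5 granule genes were still called higher (Gzma, Gzmb, Gzmc, Prf1 and Nkg7) and Serpinb6b lower, against 3.65% and 2.22% of all genes tested. Gzmd fell below the minimum there. That fit has 1 SLE1.2.3 library, mouse 1, and assumes that it varies like the controls. The log2 changes from mouse 1 alone were smaller, at 2.81 for Gzmb, 2.42 for Gzma, 2.21 for Gzmc, 2.26 for Prf1 and 2.62 for Nkg7. Without control mouse 1, 2 or 3, or without SLE1.2.3 mouse 2, 0 granule genes passed limma in either direction, where 1.25% to 1.88% of all genes were called higher and 0.563% to 0.868% lower. At an unadjusted p under 0.05, 6 or 7 were higher and 1 lower in these fits, against 13.4% to 16.3% and 9.47% to 11.7% of all genes. Without SLE1.2.3 mouse 1, 7 were called higher and 1 lower, where 18.7% and 13.9% of all genes were. With the mouse number as a block, 5 were called higher and 1 lower (5.33% and 2.94% of all genes). With no filter on low values, 2 of the 10 were called higher (Nkg7 and Gzmk) and Serpinb6b lower (1.62% and 1.03% of 30034 features). Gzma, Gzmb, Gzmc, Gzmd and Prf1 did not pass in that fit. With limma's voom method on reads recovered from the table, 3 were called higher (Gzma, Gzmb and Gzmc) and Serpinb6b lower, where 8.09% and 5.05% of all genes were called. Nkg7, Prf1 and Gzmd did not pass there (voom adjusted p = 0.074, 0.11 and 0.14).

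Other genes of the granule pathway were also examined. Of 73 genes in 7 lists by role, 64 were in the table and 49 were tested, of which 14 rose, 0 fell and 35 did not pass, where 9.65% of all tested genes were called higher and 5.58% lower. The median log2 change over the 49 was 0.21. At an unadjusted p under 0.05 limma counted 24 higher and 3 lower, and voom called 9 higher and 0 lower (8.09% and 5.05% of all genes). The share of all genes at that unadjusted threshold was computed only without control mouse 1, 2 or 3 or without SLE1.2.3 mouse 2. In those fits it was 13.4% to 16.3% higher and 9.47% to 11.7% lower. The unadjusted counts of single lists, before and after this, therefore have no share from the same fit beside them. The count rests on which libraries are used: limma called 2 higher without control mouse 1, 2 or 3 or without SLE1.2.3 mouse 2 (1.25% to 1.88% of all genes), 24 higher and 3 lower without SLE1.2.3 mouse 1 (18.7% and 13.9%), and 9 higher without SLE1.2.3 mice 2 and 3 (3.65%; Id2, Bcl6, Batf, Prdm1, Chst11, Stx11, Sytl3, Serpina3g and Serpina3f). Lamp1 was called lower under median ratio scaling, and Lamp1 and Sytl1 under quantile normalization or when the scaling ignored ribosomal, small and mitochondrial RNA. Further lower calls were Irf4 with the block, Zfp683 with no filter, Irf4, Ctsl and Lamp1 without SLE1.2.3 mouse 1, and Irf4, Ctsl, Sytl1 and Lamp1 with array weights.

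**Figure D4:**
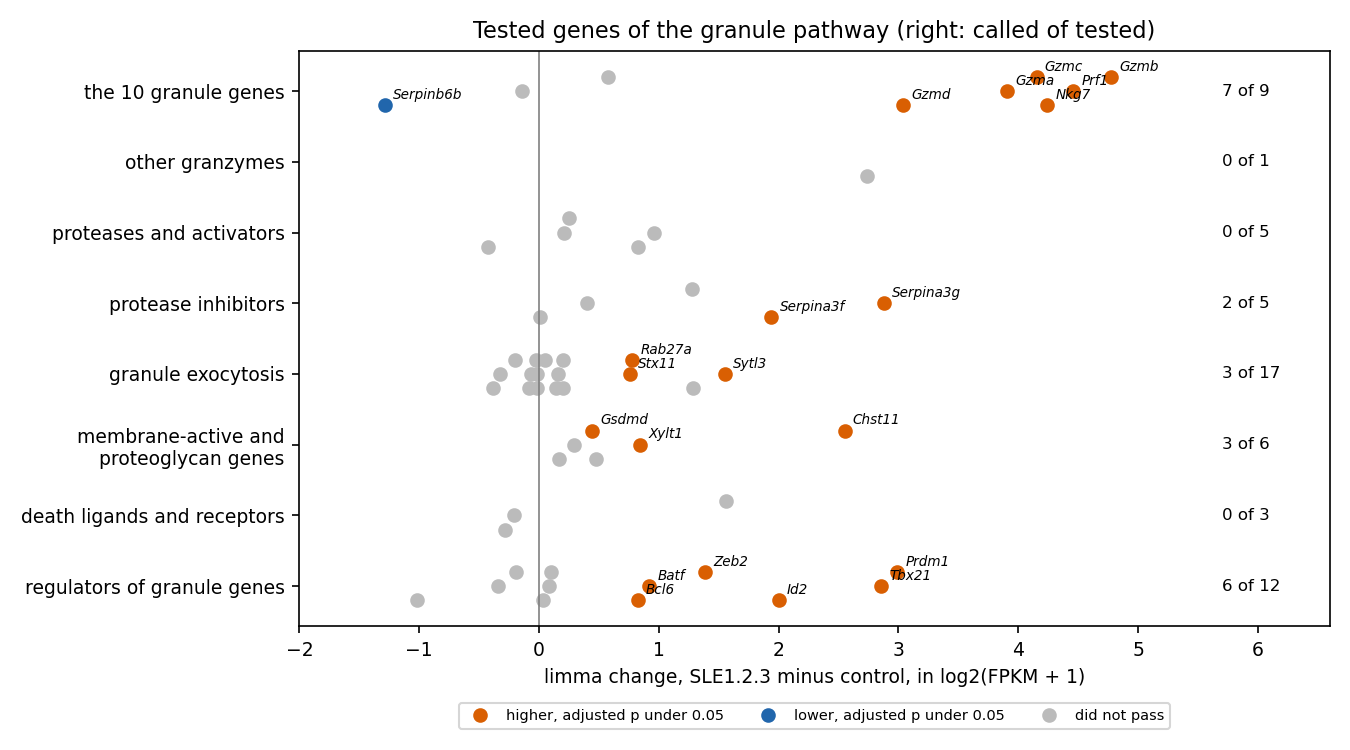
limma change in log2(FPKM + 1), SLE1.2.3 minus control, of each tested gene of the granule pathway by role, with called genes in orange (higher) or blue (lower) and named, and the rest in grey. The right column gives called of tested genes: 7 of 9 for the granule genes, 3 of 17 for exocytosis and 6 of 12 for regulators.

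Among proteases and their activators, 0 of 5 tested genes passed limma (3 higher and 0 lower at an unadjusted p under 0.05; voom called 0). Ctsc, which encodes the cathepsin that activates granzyme precursors, was at 10.8 to 11.4 FPKM in the controls and 11.3 to 14.9 FPKM in the SLE1.2.3 libraries. The 2 with the smallest adjusted p were Ctsd (limma adjusted p = 0.10) and Ctsb (0.11). Ctsd, a lysosomal aspartic protease gene, had no more than 41.3 FPKM in any control, against 42.2, 76.9 and 98.2 FPKM for SLE1.2.3 mice 1, 2 and 3. Without SLE1.2.3 mouse 1, Ctsd, Ctsc and the lymphocyte cathepsin gene Ctsw were called higher and Ctsl lower, where 18.7% and 13.9% of all genes were.

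Among protease inhibitors, 2 of 5 tested genes rose, where 9.65% of all tested genes did. 0 of the 5 passed voom (lowest adjusted p = 0.054), limma with the block (0.050), limma with no filter (0.079), or limma without control mouse 1, 2 or 3 or SLE1.2.3 mouse 2. In contrast, 4 were called higher without SLE1.2.3 mouse 1 (18.7% of all genes) and 1 without mouse 3 (732 of 11321 genes). Serpina3g and Serpina3f, neighbouring serpin genes, had log2 changes of 2.88 and 1.94 (limma adjusted p = 0.028 and 0.044). Serpina3g ranged from 0.711 to 1.08 FPKM in the controls, and SLE1.2.3 mice 1, 2 and 3 had 4.12, 18.7 and 26.0 FPKM. Serpinb1a, an inhibitor of neutrophil-type proteases from the same cluster as Serpinb9, ranged from 3.27 to 4.31 FPKM in the controls, against 4.93, 11.97 and 17.8 FPKM for SLE1.2.3 mice 1, 2 and 3 (limma adjusted p = 0.076). Cst7, which encodes cystatin F, an inhibitor of cathepsin C, was at 73.9 to 88.6 FPKM in the controls and 94.6 to 113 FPKM in the SLE1.2.3 libraries (limma adjusted p = 0.051).

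Of 17 tested genes of granule transport and fusion, 3 rose, where 9.65% of all tested genes did, and limma called Stx11 alone without control mouse 1, 2 or 3 or without SLE1.2.3 mouse 2. Stx11, a fusion protein gene whose loss causes an inherited failure of granule release, was at 31.9, 37.1 and 32.3 FPKM in control mice 1, 2 and 3 and at 57.2, 57.6 and 58.0 FPKM in SLE1.2.3 mice 1, 2 and 3 (log2 change 0.76 ± 0.07 SE; limma adjusted p = 0.0054). Its 3 SLE1.2.3 libraries were nearly level, unlike those of Gzmb, Gzmc, Gzma and Gzmd. Rab27a, whose product docks granules, rose from 31.2 ± 2.504 to 55.4 ± 15.0 FPKM, and Sytl3, a Rab27 partner gene, from 3.27 ± 0.184 to 12.2 ± 4.82 FPKM (SD, n = 3 each). Rab27a was near the threshold (limma adjusted p = 0.047). It was not called under median ratio scaling, quantile normalization, no mean-variance trend or no filter, nor without SLE1.2.3 mouse 3. The priming factor gene Unc13d was at 30.4 to 32.2 FPKM in the controls and 33.0 to 36.7 FPKM in the SLE1.2.3 libraries (limma adjusted p = 0.14), and the granule membrane gene Lamp1 at 55.4 to 59.9 and 41.7 to 50.7 FPKM (limma adjusted p = 0.053).

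Of 6 tested genes for membrane-active proteins and proteoglycan synthesis, 3 rose, where 9.65% of all tested genes did. voom called Gsdmd alone, the block did not call Xylt1, limma called Chst11 alone without SLE1.2.3 mice 2 and 3, and 0 passed without control mouse 1, 2 or 3 or without SLE1.2.3 mouse 2. Chst11, a sulfotransferase gene of chondroitin sulfate chains, rose from 1.23 ± 0.197 to 14.9 ± 10.1 FPKM, and Xylt1, whose product starts such chains, from 0.924 ± 0.0890 to 2.56 ± 1.05 FPKM (SD, n = 3 each). Gsdmd, which encodes the pore-forming protein gasdermin D, had a log2 change of 0.44 ± 0.07 (SE; limma adjusted p = 0.015). Of 3 tested death ligand and receptor genes, 0 passed limma (1 higher and 0 lower at an unadjusted p under 0.05; voom called 0). Tnfsf10, which encodes the death ligand TRAIL, had a log2 change of 1.56 (limma adjusted p = 0.062). Fasl, the ligand of the other main killing pathway, was below the minimum, at 0.154 to 0.295 FPKM in the controls and 1.16 to 2.52 FPKM in the SLE1.2.3 libraries.

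Of 12 tested genes for transcription factors that act on granule genes, 6 rose, where 9.65% of all tested genes did. voom did not call Tbx21, the block for the mouse number did not call Zeb2, and limma called Batf alone without control mouse 1, 2 or 3 or without SLE1.2.3 mouse 2. Tbx21, which encodes T-bet, ranged from 0.144 to 0.419 FPKM in the controls, against 2.90, 9.41 and 17.2 FPKM for SLE1.2.3 mice 1, 2 and 3. Prdm1, which encodes Blimp-1, ranged from 0.406 to 0.627 FPKM in the controls, against 5.19, 13.5 and 19.0 FPKM for SLE1.2.3 mice 1, 2 and 3. Id2 had a log2 change of 2.00 ± 0.30 (SE; limma adjusted p = 0.014), Batf 0.92, Bcl6 0.82 and Zeb2 1.39. Irf4, whose product acts with Batf, was at 128, 105 and 102 FPKM in control mice 1, 2 and 3 and at 84.9, 48.3 and 39.1 FPKM in SLE1.2.3 mice 1, 2 and 3, without overlap (log2 change -1.02; limma adjusted p = 0.056). It was called lower with the block, with array weights and without SLE1.2.3 mouse 1. Runx3, whose product drives Prf1 and Gzmb in CD8 T cells, was at 37.3 to 41.9 FPKM in the controls and 41.5 to 43.1 FPKM in the SLE1.2.3 libraries (limma adjusted p = 0.30). Eomes, a T-box gene of cytotoxic cells, stayed at or below 0.365 FPKM in all libraries and was not tested. Serpina3f, Serpina3g, Xylt1, Tbx21, Prdm1 and Zeb2 had control means under 1 FPKM and passed the minimum for testing only through their SLE1.2.3 values.

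The genes whose profile over the 6 libraries was most like that of Gzmb were found among 9685 other protein-coding genes by the root mean square difference of centred log2(FPKM + 1) values. They were Cd163l1 (0.38), a scavenger receptor family gene of γδ T cells, the chemokine receptor gene Cxcr6 (0.45), the interferon-γ gene Ifng (0.59), the adhesion receptor gene Adgrg5 (0.63) and the guanylate-binding protein gene Gbp6 (0.65). The median over all candidates was 2.59. Among the granule genes, Prf1 differed from Gzmb by 0.26, Gzmc by 0.37, Nkg7 by 0.39, Gzma by 0.52, Gzmd by 0.93 and Gzmk by 2.26. For Prf1 the nearest were Cd163l1 (0.27), Adgrg5 (0.51), Gbp6 (0.52), Cxcr6 (0.60) and the guanylate-binding protein gene Gbp4 (0.60). These distances over 6 libraries of 2 groups are a description.

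Markers of several other cell types were set beside these levels, against 9.65% of all tested genes called higher and 5.58% lower. Of 8 γδ and NKT cell genes, all tested, 7 rose and 0 fell, and their summed level was 2.95 to 3.78 FPKM in the controls and 57.3, 259 and 571 FPKM in SLE1.2.3 mice 1, 2 and 3. All 8 had control means under 1 FPKM. Trdv4 was at 0 reads in control mice 1 and 3, and Sox13 did not pass. voom called 1 of the 8 higher (Zbtb16), and limma called 2 (Zbtb16 and Trdv4) without control mouse 1, 2 or 3 or without SLE1.2.3 mouse 2. With SLE1.2.3 mice 2 and 3 removed, these genes could reach the minimum for testing only through mouse 1, so calls from that fit are not counted. The summed level in mouse 1 was 57.3 FPKM, against at most 3.78 FPKM in the controls. The sum of Cd8a and Cd8b1 was 4.65 to 5.60 FPKM in the controls and 7.69, 50.0 and 110 FPKM in SLE1.2.3 mice 1, 2 and 3, and 0 of the 2 passed limma (2 higher at an unadjusted p under 0.05; voom called 0). Without SLE1.2.3 mouse 1 limma called both higher, where 18.7% of all genes were, and it also did so with array weights. Of 10 NK cell genes 2 were tested, Klrd1 and Klrk1, and both rose, Klrk1 from a control mean under 1 FPKM, and the sum was 7.67 to 9.26 FPKM against 26.1 to 46.8 FPKM. Klre1, Klra7, Tyrobp and Fcer1g, which were not tested, overlapped between the groups, with Tyrobp at 1.19, 0.170 and 1.16 FPKM in SLE1.2.3 mice 1, 2 and 3 against 0.303 to 0.845 FPKM. limma called only Klrd1 of the 2 without control mouse 1, 2 or 3 or without SLE1.2.3 mouse 2. The defining NK gene Ncr1 was at most 0.032 FPKM in any library, and Klra4 and Klra8 were at 0 in the controls and at most 0.032 FPKM in the SLE1.2.3 libraries.

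Of 8 B cell genes, all 4 tested rose, of which Cd79b, Blk and Jchain had control means under 1 FPKM (voom called 2, Igkc and Jchain, and limma called Igkc alone with SLE1.2.3 mice 2 and 3 removed, or with control mouse 2 or 3 or SLE1.2.3 mouse 2 removed alone), with a sum of 2.66 to 4.52 FPKM in the controls and 64.4 to 191 FPKM in the SLE1.2.3 libraries, mostly from Igkc, while Ms4a1 stayed at or below 0.043 FPKM. Of 8 mast cell and basophil genes 0 of 3 tested passed limma (1 higher at an unadjusted p under 0.05; voom called 0), and the sum was 0.891 to 2.12 FPKM in the controls and 4.44, 3.88 and 20.1 FPKM in SLE1.2.3 mice 1, 2 and 3, with Mcpt4 at 0 throughout. Of 8 myeloid genes Cd68 fell and 2 others tested did not pass, and the sum was 8.32 to 9.65 FPKM in the controls and 12.8, 5.22 and 3.48 FPKM in SLE1.2.3 mice 1, 2 and 3. The part of these cells in the granule gene levels was not tested.

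**Figure D5:**
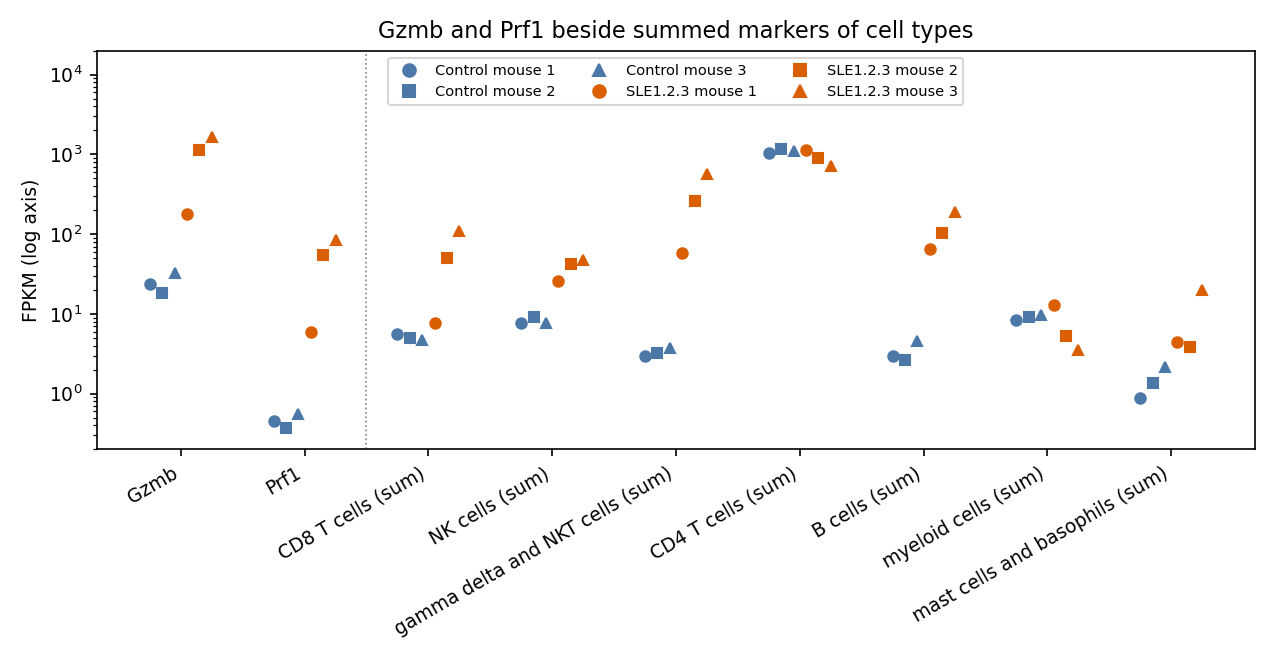
FPKM of Gzmb and Prf1 and summed FPKM of 7 marker lists (log axis) in control (blue) and SLE1.2.3 (orange) libraries, one symbol per mouse. The CD8, NK, γδ and B cell sums have the same order over SLE1.2.3 mice 1, 2 and 3 as Gzmb and Prf1, and the sum listed for CD4 T cells is lowest in SLE1.2.3 mouse 3, at 716 FPKM.

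Granule genes were also set against Trdc in the same library. Trdc is 1 of the 8 γδ and NKT cell genes, and ratios to the others were not computed. The SLE1.2.3 mean was 39.5 times the control mean for Gzmb and 36.7 times for Trdc. For the other genes of that list it was 41.9 (Trgc4) to 1106 (Trdv4) times, with 170 for Trgc1. The overlaps below therefore hold for Trdc and need not hold for another γδ gene. Gzmb per Trdc was 38.2, 28.0 and 54.9 in control mice 1, 2 and 3 and 35.7, 60.1 and 36.5 in SLE1.2.3 mice 1, 2 and 3, and these groups overlapped. The ratios to Trdc also overlapped for Gzma (2.83 to 7.68 and 2.17 to 5.10), Gzmc (12.8 to 19.3 and 10.2 to 15.95) and Nkg7 (1.91 to 2.36 and 2.11 to 3.21). Prf1 per Trdc was 0.567 to 0.924 in the controls and 1.21 to 2.88 in the SLE1.2.3 libraries, without overlap. Against Cd8a, Gzmb was at 47.1 to 84.8 times in the controls and at 132, 53.3 and 29.2 times in SLE1.2.3 mice 1, 2 and 3. In SLE1.2.3 mouse 1, where Cd8a was at 1.34 FPKM and Cd4 at 257 FPKM, Gzmb was at 177 FPKM and Trdc at 4.96 FPKM. These are values of 1 library of bulk RNA, and which cells held the granule RNA was not tested.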

How the data were processed

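RNA of 6 Th17 cultures was measured, 3 per genotype, each a separate library. The authors deposited 1 table of FPKM values for 33300 features with gene lengths and mm10 positions, per the file headers. STAR 2.7.3a, featureCounts 2.0.0, cutadapt 2.10, DESeq2 1.24.0, FastQC 0.11.9 and mm10 stand, without roles, in the submitters' processing notes. The annotation release and the strand setting were not given in the sources used here. FPKM values are not counts, so the main test was limma 3.58.1 (R 4.3.3) on log2(FPKM + 1), with a mean-variance trend, over the 11378 genes that averaged 1 FPKM or more, with Benjamini-Hochberg adjustment over all of them and a threshold of 0.05. Fold changes on this scale understate those of low genes.

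Values times gene length were whole multiples of 1 read: 100% of the values under 30 reads came out whole within 0.15. This gave 29735390 to 83457532 assigned reads per library and a limit of 3 reads for a value of 0. Intervals and limits cover counting error only, and reads are not independent molecules. voom on these reads was an alternative. On simulated reads for 11362 genes, drawn with a dispersion of 0.02, the main test recovered 97 of 100 genes changed 2-fold and 97 of 100 changed 4-fold, and 6.28% of its calls were unchanged genes. The granule genes that rose varied more between SLE1.2.3 mice, and the recovery does not describe them.

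The granule genes and all gene lists were chosen with earlier results of these data known. Named were all granzyme genes, up to 4 genes of each pathway list by smallest adjusted p (up to 2 where none passed), and the 5 genes nearest to Gzmb and to Prf1. Ctsc, Ctsw, Ctsl, Unc13d, Fasl, Tbx21, Zeb2, Runx3, Eomes, Irf4, Zfp683, Tyrobp, Serpinb6a, Serpinb6c, Sytl1, Esm1, the neighbours of the chromosome 14 cluster and the promoters of Gzmc and Gzmd were added after their values were seen. Promoters came from RefSeq (GRCm38.p6), where all 10 granule genes matched by symbol, and transcripts from GENCODE M21, whose release may differ from the one the authors used. Alternatives were another pseudocount, other filters, other scalings, no trend, weights per library, a block for the mouse number, and leaving out libraries.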

Additional observations from a re-analysis of the deposited data

How the results depend on the processing

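Main counts were 1098 genes higher and 635 lower over all tested genes, 6 and 1 among the granule genes, and 14 and 0 among the pathway lists, and 0 of these reversed. No filter on low values gave 488 and 310 over all genes, 2 granule genes higher, and 6 and 1 in the lists, with 30034 features tested. A minimum of 5 FPKM gave 391 lower over all genes and 0 granule genes lower, since Serpinb6b was then not tested. Array weights gave 3141 and 2524 over all genes and 27 and 4 in the lists. Leaving out SLE1.2.3 mice 2 and 3 gave 410 and 249 over all genes and 9 higher in the lists. voom gave 3 granule genes and 9 listed genes higher. Genes called lower in the lists numbered 1 under median ratio scaling, and 2 under quantile normalization and with ribosomal, small and mitochondrial RNA left out. Quantile normalization gave 921 higher and 881 lower over all genes. Leaving out 1 library gave 142 to 2122 higher and 64 to 1583 lower over all genes, 0 to 7 higher and 0 to 1 lower among the granule genes, and 2 to 24 higher and 0 to 3 lower in the lists. Beyond fewer samples or genes, the cause of these shifts was not tested.

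Mouse numbers share only a number between the groups: same-numbered mice correlated at -0.00, 0.10 and 0.09 in their deviations over genes, and not every library was closest to its own number. With the mouse number as a replicate block, 606 genes were higher and 334 lower, 5 granule genes were higher (Gzmd at adjusted p = 0.052) and 1 lower, and 10 listed genes were higher and 1 lower. Depth limits Gzmd, Gzmk, Gzme, Gzmf, Gzmg and Gzmn in the controls, which rest on 0 to 7 reads per library.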
